A study of Mus musculus with 4 samples.

Results

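Purinergic signalling genes were examined in mouse bone marrow-derived macrophages (BMDMs), namely the nucleotide receptors P2ry2, P2ry6, P2ry12, P2ry13 and P2ry14, the ATP-gated channels P2rx4 and P2rx7, the adenosine receptor Adora2b, and the ectonucleotidases Entpd1 and Nt5e. These 10 genes, of 23245 that the array annotation names, were listed by symbol and were covered by 13 of the 55681 probes. They were chosen with the arrays already known, because P2ry2 and P2ry6 differed in opposite ways after Lamtor1 loss, so the values of these 2 genes are a description of why they were chosen and support nothing by themselves.

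RNA from 4 cultures was hybridized, each to 1 Agilent array in 1 colour. All cells came from C57BL/6J mice of 10 weeks, were grown for 6 days in supernatant of L929 cells, a source of macrophage colony-stimulating factor, and were then stimulated for 2 days. Wild-type M1 BMDMs received 20 ng/ml IFN-γ together with 100 ng/ml LPS, and wild-type M2 BMDMs received 50 ng/ml IL-4. The other cultures were wild-type BMDMs given the same IL-4 with 250 nM Torin1, an inhibitor of the kinase mTOR, and Lamtor1-deficient BMDMs given the same IL-4. Lamtor1, also called p18 and listed on the array as 2400001E08Rik, anchors the Ragulator complex, a platform for mTORC1 on lysosomes. The labels give the deficient genotype as p18 (2400001E08Rik) -/-. According to the study's description of its mice, the deletion was made with flox alleles and a LysM-Cre transgene, which is active in myeloid cells, and the wild-type BMDMs came from flox/flox mice without Cre. No condition had a second array, so no difference between conditions has a replicate check and no test was possible. The errors given come from repeated spots within an array and leave out the variation between cultures. In these bulk samples, fewer cells of a type and less RNA per cell cannot be told apart.

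Cells release ATP, UTP and other nucleotides when they are stressed, dying or activated. P2Y receptors are coupled to G proteins and P2X receptors are ion channels, and both sense these nucleotides outside the cell. Ectonucleotidases shorten the nucleotides step by step to adenosine, which acts through receptors of its own. In macrophages this system is known for directing movement towards dying cells, for inflammasome activation through P2X7, and for the dampening of inflammation by adenosine.

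Values are processed signals, which are spot intensities after background subtraction, and normalized signals, which are processed signals divided by the 75th percentile of their array (595 in M2, 536 in Lamtor1-deficient, 470.0 in Torin1-treated and 287 in M1 BMDMs). A probe was taken as measured on an array where the scanner software called it well above background. The lowest signal of such a probe lay between 15.7 and 21.6. From repeated spots, a log2 ratio had an SD between 0.088 and 0.0998 in the 4 comparisons, and between 0.267 and 0.437 for dim probes. The probe for Lamtor1 had processed signals of 39460 in M2, 833 in Lamtor1-deficient, 35232 in Torin1-treated and 14688 in M1 BMDMs, and its normalized signal after Lamtor1 loss was 2.34% of that in M2 BMDMs. All 8 macrophage markers were well above background on every array, though not at even levels. Fcgr1 was 31.1-fold lower than in M2 after Lamtor1 loss and 24.4-fold lower after Torin1, and Emr1, which encodes F4/80, was 5.94-fold and 7.02-fold lower. The log2 ratio to M2 of Mrc1, the mannose receptor induced by IL-4, was −1.42 after Lamtor1 loss, −2.64 after Torin1 and −8.18 in M1 BMDMs.

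After Lamtor1 loss, 2 members had a normalized signal at least 2-fold above that of wild-type M2 BMDMs, against 8.86% of all 23218 genes with a value on every array, and 4 were at least 2-fold below, against 8.65%. The higher members were P2ry2 and P2ry14. The lower members were P2ry6, P2ry12, P2rx7 and Adora2b. After Torin1, 3 members were higher (P2ry2, Entpd1 and Nt5e), against 14.3% of all genes, and 5 were lower (P2ry6, P2ry12, P2ry13, P2ry14 and Adora2b), against 11.8%. In M1 BMDMs, P2ry2 was higher, against 30.6% of all genes, and P2ry6, P2ry12, P2ry14, P2rx7 and Entpd1 were lower, against 19.3%. The ratios of P2ry12, of Nt5e and, after Torin1, of P2ry13 in these tallies rest on dim probes. Among members well above background on both arrays, 2 were higher and 3 lower of 8 after Lamtor1 loss, 2 were higher and 3 lower of 7 after Torin1, and 1 was higher and 4 lower of 8 in M1 BMDMs. The corresponding shares of all such genes were 7.79% and 7.73%, 11.8% and 13.2%, and 25.0% and 25.4%. The median log2 ratio of the 10 members was −0.10 after Lamtor1 loss, −0.91 after Torin1 and −0.45 in M1 BMDMs, where that of all genes was 0.04, −0.05 and 0.74. For genes well above background on both arrays, as 8 of the members were, the M1 median was 0.08 and not 0.74. These 3 comparisons share the M2 array. The counts of members include P2ry2 and P2ry6, whose opposite values after Lamtor1 loss led to the choice of members. An excess over the share of all genes is therefore partly set by that choice.

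**Figure D1:**
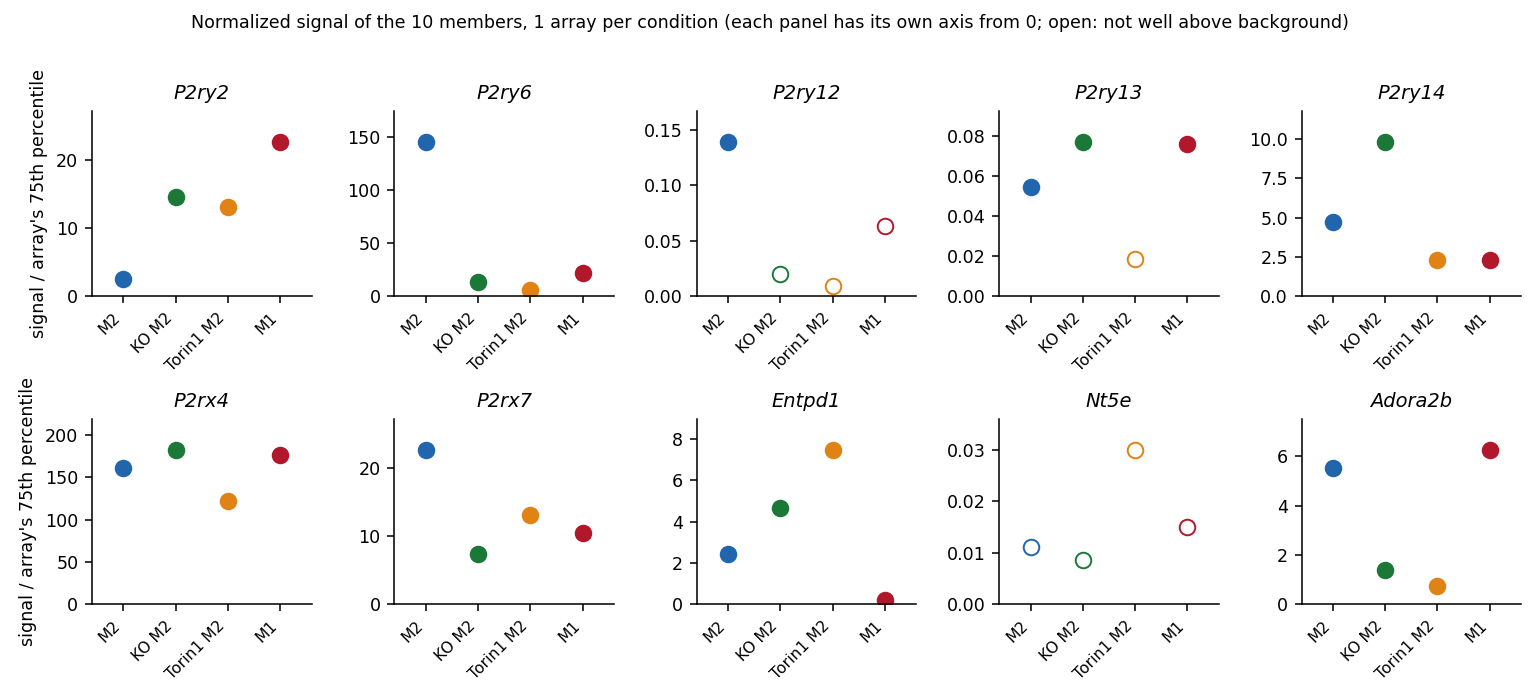
Normalized signal (processed signal over the array's 75th percentile, no unit) of the brightest probe of each member on the 4 arrays, 1 point per array, with a separate axis from 0 for each gene. KO M2 is the Lamtor1-deficient culture, and open points were not well above background. P2ry6 is high only on the M2 array (145 against 6.22 to 21.7), and P2ry2 is low only there (2.46, against 14.5 after Lamtor1 loss and 22.6 in M1 BMDMs).

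P2ry6, a receptor for UDP, and P2ry2, a receptor for ATP and UTP, are neighbours on chromosome 7, and their probes lie 59.4 kb apart. The first 30 bases of their 60-base probes are shown because every value of the 2 genes comes from these sequences. Both probes run along the minus strand, that of P2ry6 at chr7:108086149-108086208 and that of P2ry2 at chr7:108145553-108145612 of mm9.
P2ry6 (probe A_51_P105124): gttcacatccatttgccaagacttttgcat
P2ry2 (probe A_52_P587738): attccactgtggccaatcctatttcaattt

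The processed signal of P2ry6 was 86479 in M2, 7120 in Lamtor1-deficient, 2924 in Torin1-treated and 6227 in M1 BMDMs. It was high in the M2 culture only, and the 3 others lay far below it. This probe was spotted 10 times on each array. The spots lay between 78486 and 88747 in M2, between 6532 and 7445 in Lamtor1-deficient, between 2629 and 3054 in Torin1-treated and between 5668 and 6624 in M1 BMDMs. Before normalization the spots of the 4 arrays therefore overlapped only between Lamtor1-deficient and M1 BMDMs. The SD over the spots, on the scale of the processed signal, was 3018, 272, 117 and 252, respectively. After normalization the signal was 10.9-fold lower after Lamtor1 loss (log2 ratio −3.45), 23.4-fold lower after Torin1 (−4.55) and 6.70-fold lower in M1 BMDMs (−2.74). Among the genes well above background on both arrays, its ratio was the 85th lowest of 13904 after Lamtor1 loss and the 72nd lowest of 13979 after Torin1.

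P2ry2 had processed signals of 1463 in M2, 7781 in Lamtor1-deficient, 6116 in Torin1-treated and 6476 in M1 BMDMs. It was low in the M2 culture only, the reverse of P2ry6. The normalized signal was 5.90-fold higher after Lamtor1 loss (log2 ratio 2.56), 5.29-fold higher after Torin1 (2.40) and 9.18-fold higher in M1 BMDMs (3.20). Its ratio was the 194th highest of 13904 genes after Lamtor1 loss, the 227th highest of 13979 after Torin1 and the 435th highest of 13256 in M1 BMDMs. Lamtor1-deficient and Torin1-treated BMDMs differed little in P2ry2 (log2 ratio 0.16, and −0.05 after quantile normalization), whereas P2ry6 was 2.13-fold higher in Lamtor1-deficient than in Torin1-treated BMDMs (log2 ratio 1.09). That last ratio was 0.94 after quantile normalization and with the percentile taken from bright probes alone, those measured on every array, just under 2-fold.

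**Figure D2:**
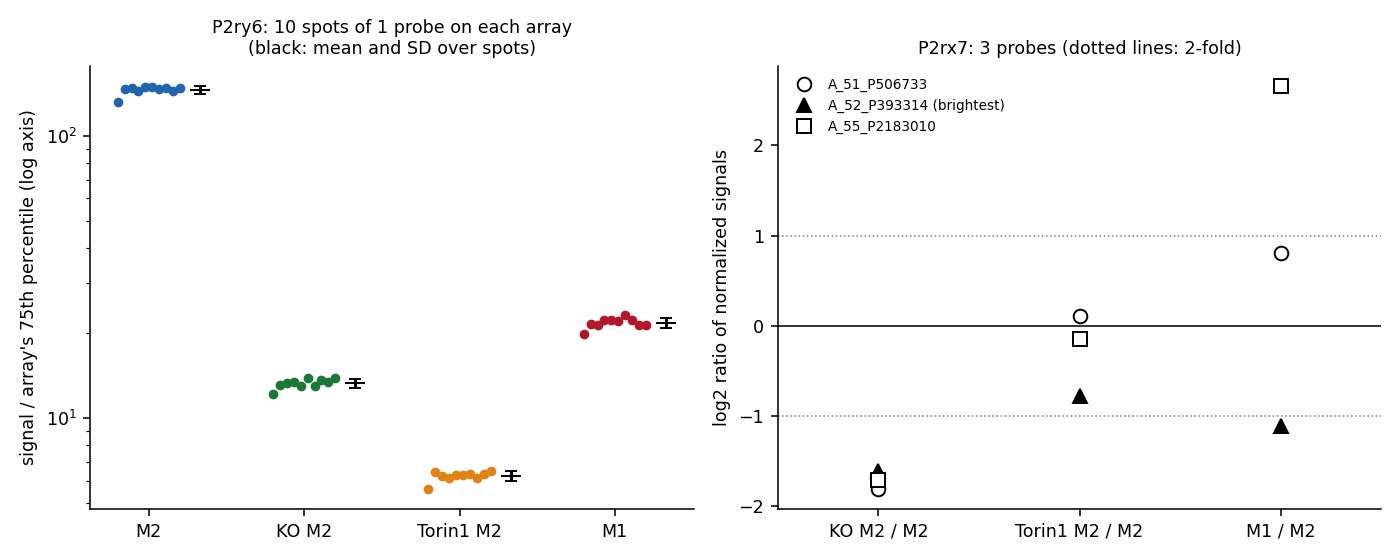
The left panel plots the normalized signal of the 10 spots of the P2ry6 probe on each array on a log axis, with the mean and SD over spots in black. The right panel plots the log2 ratios of the 3 P2rx7 probes to M2, with dotted lines at 2-fold. The P2ry6 spots of the 4 arrays do not overlap after normalization, and the P2rx7 probes lie together after Lamtor1 loss (−1.61 to −1.81) and apart in M1 BMDMs (−1.11 to 2.66).

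P2ry2 and P2ry6 lie on the chromosome of the deleted gene, with their probes 915 kb and 974 kb from that of Lamtor1. Of the 131 other genes with a probe within 2 Mb of Lamtor1, 21 differed at least 2-fold after Lamtor1 loss (16.0%), 8 of them higher and 13 lower, against 17.5% of all genes. Torin1 was given to wild-type cells, and after it 29 of the 131 genes differed (22.1%), against 26.0% of all genes. Where both arrays were well above background, 12 of 50 genes near Lamtor1 differed after its loss (24.0%, against 15.5% of all such genes) and 13 of 52 after Torin1 (25.0%, against 25.0%). These counts include P2ry2 and P2ry6 themselves.

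**Figure D3:**
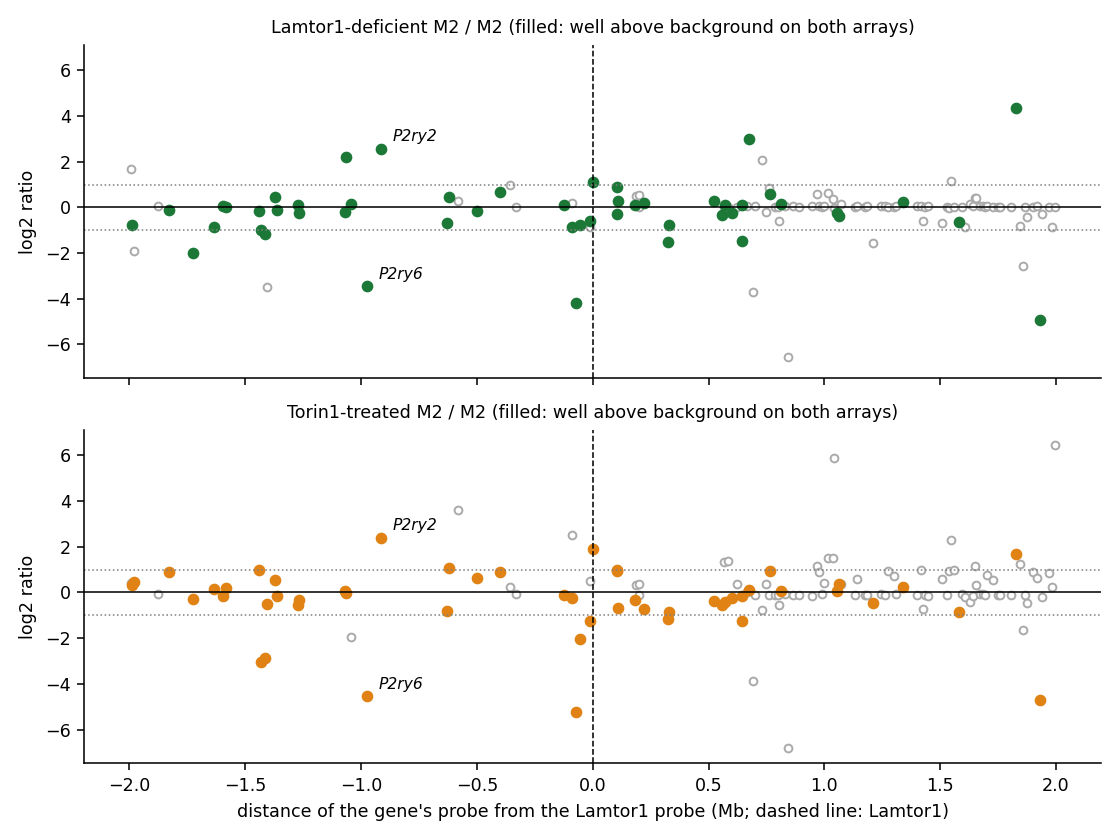
Log2 ratio to M2 of the genes within 2 Mb of Lamtor1 against the distance of their probe from the Lamtor1 probe in Mb, after Lamtor1 loss (upper panel) and after Torin1 (lower panel). Filled points were well above background on both arrays, and dotted lines mark 2-fold. P2ry2 and P2ry6 sit next to each other, 915 and 974 kb from Lamtor1, above and below the lines in both panels.

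P2ry12, P2ry13 and P2ry14 form a cluster on chromosome 3, where the probes of P2ry12 and P2ry13 were 8.54 kb apart and that of P2ry14 was 93.5 kb from P2ry13. P2ry12 and P2ry13 encode receptors for ADP, and P2ry14 encodes a receptor for UDP-glucose. The 3 genes had different patterns. P2ry12 (chr3:59020598-59020657 of mm9) was dim, with processed signals of 82.7 in M2, 10.8 in Lamtor1-deficient, 4.44 in Torin1-treated and 18.2 in M1 BMDMs. It was well above background in the M2 culture only. Its normalized signal was at least 3.71-fold lower after Lamtor1 loss, at least 4.15-fold lower after Torin1 and at least 2.12-fold lower in M1 BMDMs, each bound being taken against the lowest signal well above background. With normexp background correction the log2 ratio was −0.70 after Lamtor1 loss, −0.71 after Torin1 and 0.24 in M1 BMDMs, under 2-fold and under these bounds, so the bounds hold only for the background subtraction of the scanner software.

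P2ry13 (chr3:59012054-59012113) had processed signals of 32.4 in M2, 41.4 in Lamtor1-deficient, 8.76 in Torin1-treated and 21.9 in M1 BMDMs, and it was not well above background after Torin1. All of its values lay close to background. The log2 ratio was 0.50 after Lamtor1 loss, and the signal was at least 1.62-fold lower after Torin1 than in M2 BMDMs (log2 ratio −0.17 with normexp). The M1 log2 ratio of 0.49 turned to −0.33 with the array median as scale and to −0.39 after quantile normalization. Lamtor1-deficient BMDMs had a signal at least 2.30-fold higher than Torin1-treated BMDMs, a bound that held only for the background subtraction of the scanner software (log2 ratio 0.43 with normexp).

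P2ry14 (chr3:58918548-58918607) was well above background on all arrays, with processed signals of 2815 in M2, 5253 in Lamtor1-deficient, 1084 in Torin1-treated and 665 in M1 BMDMs. It was the member that Lamtor1 loss and Torin1 moved to opposite sides of the M2 value past 2-fold. The signal was 2.07-fold higher after Lamtor1 loss (log2 ratio 1.05), 2.05-fold lower after Torin1 (−1.04) and 2.04-fold lower in M1 BMDMs (−1.03). These ratios lay near the 2-fold limit, and with that percentile taken from bright probes alone, those measured on every array, they were 0.98 after Lamtor1 loss and −0.95 after Torin1. Between Lamtor1-deficient and Torin1-treated BMDMs it differed 4.25-fold (log2 ratio 2.09). The summed normalized signal of 8 fibroblast markers was likewise higher in Lamtor1-deficient (57.1) and M2 BMDMs (44.8) than in Torin1-treated (16.9) and M1 BMDMs (16.3). Not every marker went that way, as Dcn was at 9.27 in M1 and 1.58 in M2 BMDMs. Between 5 and 8 of these markers were well above background, and their part in the P2ry14 values was not tested.

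Promoter sequence from RefSeq (GRCm38.p6) was searched for the 250 bases before each start site, of which 15 windows belonged to 9 members. P2ry6 had no promoter window. The motifs were that of STAT6 (TTC and GAA with 4 bases between them), the interferon-stimulated response element (GAAA and GAAA with 2 bases between them) and the E-box CACGTG, on both strands. They occur in 5.89%, 2.98% and 6.04% of all 32536 windows of this length. The first 2 motifs were in none of the windows of members. CACGTG was in 2 of 15 windows, which are those shown here, with the motif in capitals, for P2ry2 (chr7:101011999-101012248, minus strand, 18 bases before the start) and P2ry12 (chr3:59262986-59263235, minus strand, 228 bases before the start). These 2 genes differed from M2 in opposite ways on the other 3 arrays, though P2ry12 was well above background in M2 only. With normexp the log2 ratio of P2ry12 in M1 BMDMs was 0.24, the direction of P2ry2. A match of letters does not show that a factor binds there.
P2ry2: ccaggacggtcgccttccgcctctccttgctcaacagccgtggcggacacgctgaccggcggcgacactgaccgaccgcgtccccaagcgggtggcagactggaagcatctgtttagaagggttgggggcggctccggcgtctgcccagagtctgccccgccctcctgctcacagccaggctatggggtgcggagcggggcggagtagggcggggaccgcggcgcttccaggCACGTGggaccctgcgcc
P2ry12: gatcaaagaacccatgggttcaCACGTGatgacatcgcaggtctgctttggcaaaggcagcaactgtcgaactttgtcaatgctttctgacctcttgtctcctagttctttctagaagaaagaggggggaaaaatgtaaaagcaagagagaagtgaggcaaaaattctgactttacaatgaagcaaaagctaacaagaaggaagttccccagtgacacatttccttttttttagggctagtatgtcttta

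The ATP-gated channels P2rx4 and P2rx7 lie 44.8 kb apart by their probes on chromosome 5. P2X4 is found largely in lysosomes of macrophages, and P2X7 opens at high concentrations of ATP and leads to inflammasome activation. P2rx4 (chr5:123178983-123179042) was bright on every array, with processed signals of 95551 in M2, 97731 in Lamtor1-deficient, 57581 in Torin1-treated and 50713 in M1 BMDMs. No comparison reached 2-fold. The log2 ratio was 0.18 after Lamtor1 loss (−0.02 after quantile normalization), −0.39 after Torin1 and 0.14 in M1 BMDMs (−0.68 with the array median as scale).

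P2rx7 was covered by 3 probes, which are shown by their first 30 bases because they gave different answers for M1 BMDMs. The array annotation lists them under 3 different transcripts, called variant 1, variant 2 and variant 4 here as names of the probes. Whether a probe reads 1 transcript alone was not tested. The variant 1 probe is A_52_P393314, the brightest, at chr5:123134194-123134253. That of variant 2 is A_51_P506733, which spans chr5:123120528-123123413 and thus an intron. That of variant 4 is A_55_P2183010, at chr5:123105174-123105233. All lie on the plus strand of mm9.
P2rx7 variant 1: ttcacttctctctttaaagggaaccatctt
P2rx7 variant 2: tttcggcactggaggaaaatttgacatcat
P2rx7 variant 4: ggtcaaaaagctccccaatccatgcaacaa

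The probe for variant 1 had processed signals of 13494 in M2, 3980 in Lamtor1-deficient, 6198 in Torin1-treated and 3007 in M1 BMDMs. The probe for variant 2 had 346, 89.0, 295 and 291, in the same order of cultures. The probe for variant 4 had 888, 244, 632 and 2706. All 3 probes were lowest in Lamtor1-deficient BMDMs once normalized, and the log2 ratio to M2 was −1.61, −1.81 and −1.71, respectively. After Torin1 it was −0.78, 0.11 and −0.15, so that no probe reached 2-fold, and the 3 probes were lower in Lamtor1-deficient than in Torin1-treated BMDMs by log2 ratios of −0.83, −1.92 and −1.56. In M1 BMDMs the probes went apart. The log2 ratio to M2 was −1.11 for the variant 1 probe, 0.80 for the variant 2 probe and 2.66 for the variant 4 probe. Relative to the median of all genes, which was 0.74 in this comparison, these values were −1.85, 0.06 and 1.92, whereas the median was 0.08 for genes well above background on both arrays, as these probes were. The size of the difference for the variant 2 probe thus depended on which median it was set against. The direction of P2rx7 in M1 BMDMs thus depended on the probe, whereas that after Lamtor1 loss did not.

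Entpd1 encodes CD39, which converts ATP and ADP to AMP at the cell surface. Its probe (chr19:40816008-40816067) had processed signals of 1446 in M2, 2504 in Lamtor1-deficient, 3516 in Torin1-treated and 66.0 in M1 BMDMs. The level was lowest in M1 BMDMs, 10.6-fold below M2 (log2 ratio −3.40, and −2.70 with normexp), and highest after Torin1, 3.08-fold above M2 (1.62). After Lamtor1 loss it was 1.92-fold above M2 (0.94), just under the 2-fold limit. On this gene, Lamtor1-deficient and Torin1-treated BMDMs thus lay on the side of M2 away from M1, the reverse of P2ry2 and P2ry6. The summed normalized signal of 8 lymphocyte markers was 38.9 in M2, 100.4 in Lamtor1-deficient, 140.6 in Torin1-treated and 58.3 in M1 BMDMs, and most of it came from Il7r. The other 7 markers summed to 7.47 after Torin1, where Entpd1 was highest, and on the other arrays to more, up to 15.1 in M1 BMDMs. Between 4 and 6 of them were well above background, Ms4a1 was so on no array, and the part of these markers in the Entpd1 values was not tested.

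Nt5e encodes CD73, which converts AMP to adenosine. Its probe (chr9:88266616-88266675) had processed signals of 6.66 in M2, 4.63 in Lamtor1-deficient, 14.1 in Torin1-treated and 4.32 in M1 BMDMs. It was well above background on no array, so its ratios carry no order, and the count of Nt5e among the members past 2-fold after Torin1 carries no measured change.

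Adora2b, the adenosine receptor of low affinity, had processed signals of 3286 in M2, 734 in Lamtor1-deficient, 341 in Torin1-treated and 1793 in M1 BMDMs for its brightest probe (A_55_P1993503, chr11:62079834-62079893). A second probe (A_66_P118906, chr11:62078754-62078813) gave 887, 179, 117 and 753. Both were high in M2 and M1 BMDMs and low in the other 2 cultures. The log2 ratio of the 2 probes was −2.01 and −2.15 after Lamtor1 loss, −2.93 and −2.58 after Torin1, and 0.18 and 0.82 in M1 BMDMs. The brightest probe was 4.03-fold lower after Lamtor1 loss and 7.61-fold lower after Torin1. In M1 BMDMs its direction depended on the scaling, with −0.64 for a shift to the array median.

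**Figure D4:**
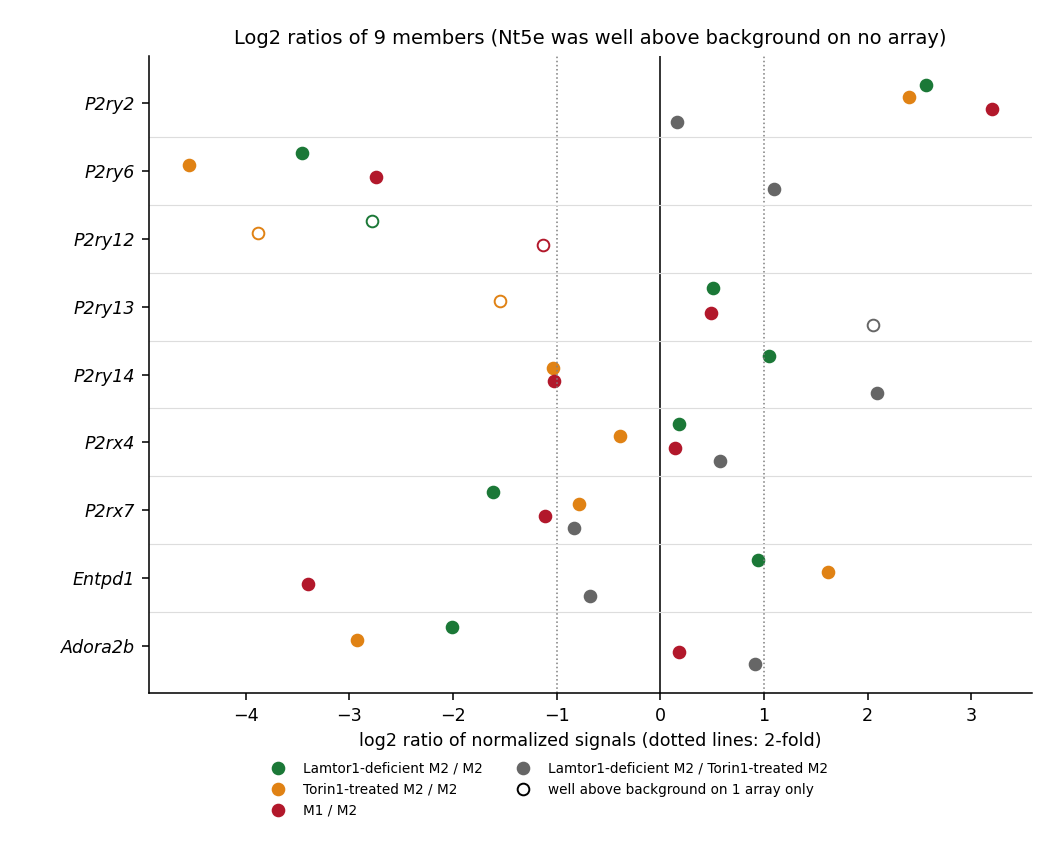
Log2 ratios of normalized signals for the brightest probe of 9 members, with Lamtor1-deficient, Torin1-treated and M1 BMDMs each over M2, and Lamtor1-deficient over Torin1-treated BMDMs, 1 point per comparison and dotted lines at 2-fold. Open points had a probe well above background on 1 of the arrays compared. P2ry2 lies to the right and P2ry6 to the left in the 3 comparisons with M2, whereas P2ry14 lies on opposite sides after Lamtor1 loss and Torin1.

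The median over all genes of the M1 to M2 log2 ratio was 0.74 with the 75th percentile as scale, −0.08 with the median as scale, and 0.08 for genes well above background on both arrays. Relative to the shift of 0.74, the log2 ratios in M1 BMDMs were 2.46 for P2ry2, −3.48 for P2ry6, −1.77 for P2ry14, −1.85 for the brightest probe of P2rx7, −4.14 for Entpd1, −0.60 for P2rx4, −0.25 for P2ry13 and −0.56 for Adora2b. Relative to the medians after Lamtor1 loss and after Torin1, P2ry14 was at 1.01 and −0.98. Between Lamtor1-deficient and Torin1-treated BMDMs, P2ry6, P2ry12, P2ry13 and P2ry14 were at least 2-fold higher in the former, against 11.7% of all genes, and Nt5e was lower, against 12.7%. Of the 7 members well above background on both of these arrays, 2 were higher and 0 lower, against 12.9% and 9.77% of all such genes. P2ry12 and Nt5e were well above background on neither of these 2 arrays and P2ry13 on 1 of them.

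The M2 array stood apart from the others in markers of neutrophils. Of 8 such markers, 6 were measured, and their summed normalized signal was 90.5 in M2, 6.30 in Lamtor1-deficient, 5.87 in Torin1-treated and 4.41 in M1 BMDMs. Without S100a9, the brightest of them, the sum was 25.2 in M2 and between 3.03 and 3.85 on the other arrays. The 6 measured markers were well above background on 3 of the arrays, and in M1 BMDMs Ngp and Ltf were not. P2ry6 and P2ry12, and P2rx7 by its brightest probe, were likewise highest in M2. The part of neutrophil RNA in their values was not tested.

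The rest of the purinergic system was read from a list of 38 further receptors, enzymes, channels and transporters, of which 30 were well above background on at least 1 array and 8 on none. After Lamtor1 loss 5 of the 38 were at least 2-fold higher and 4 lower, against 8.86% and 8.65% of all genes. After Torin1 7 were higher and 13 lower, against 14.3% and 11.8%, and in M1 BMDMs 10 were higher and 9 lower, against 30.6% and 19.3%. Where both arrays were well above background, 4 were higher and 4 lower of 29 after Lamtor1 loss (7.79% and 7.73% of all such genes), 4 and 7 of 25 after Torin1 (11.8% and 13.2%), and 6 and 5 of 23 in M1 BMDMs (25.0% and 25.4%). The median log2 ratio of the list was 0.20 after Lamtor1 loss, −0.13 after Torin1 and −0.16 in M1 BMDMs, beside 0.04, −0.05 and 0.74 for all genes. The M1 median was 0.08 for genes well above background on both arrays, as 23 of the list were.

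Adora2a, the adenosine receptor of high affinity, had processed signals of 47.0 in M2, 103 in Lamtor1-deficient, 684 in Torin1-treated and 658 in M1 BMDMs. It was lowest in M2, and the log2 ratio to M2 was 1.28 with Lamtor1 loss, 4.20 with Torin1 and 4.86 in M1 BMDMs. Adora2a was thus higher where Adora2b was lower after both treatments. Adora3 had processed signals of 300.1 in M2, 68.9 in Lamtor1-deficient, 3.5 in Torin1-treated and 297 in M1 BMDMs, which is 3.92-fold lower after Lamtor1 loss and at least 15.1-fold lower after Torin1. Like Adora2b, it was high in M2 and M1 BMDMs and low after both treatments. Adora1 was well above background on no array.

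Among enzymes that use the products of this pathway, Ada, the adenosine deaminase, had processed signals of 1062 in M2, 377 in Lamtor1-deficient, 106.5 in Torin1-treated and 329 in M1 BMDMs. Its log2 ratio to M2 was −1.34 after Lamtor1 loss and −2.98 after Torin1. Pnp, the purine nucleoside phosphorylase that acts on inosine, was at −0.68 after Lamtor1 loss, −1.36 after Torin1 and 1.93 in M1 BMDMs on the log2 scale. At the cell surface, Entpd8, a relative of CD39, was at 1.15 after Lamtor1 loss and 1.12 after Torin1. Enpp1, which cleaves ATP to AMP and pyrophosphate, was at 1.34 and 0.35 (1.63 and −0.11 for a second probe). Acpp, a phosphatase that can form adenosine from AMP, was at 0.43 and 2.39. Enpp3 was at 0.36 after Lamtor1 loss and at least 2.61-fold lower after Torin1, and Alpl, the tissue-nonspecific alkaline phosphatase, was at −0.01 and at least 3.80-fold lower.

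Nucleoside transporters also went in both directions. Slc29a1, the equilibrative transporter ENT1, had processed signals of 9455 in M2, 18947 in Lamtor1-deficient, 31500 in Torin1-treated and 4072 in M1 BMDMs, with log2 ratios to M2 of 1.15 after Lamtor1 loss and 2.08 after Torin1. Slc28a2, a concentrative transporter, had 1894, 466, 330 and 12510 in the same order, with log2 ratios of −1.87 after Lamtor1 loss, −2.18 after Torin1 and 3.78 in M1 BMDMs. Slc29a2 and Slc28a1 were lower after Torin1 by log2 ratios of −1.09 and −1.11, and their ratios after Lamtor1 loss were −0.40 and −0.03. Slc28a3 was at least 1.48-fold lower after Torin1 and at least 1.31-fold lower after Lamtor1 loss.

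Of the remaining receptors and channels, P2rx3, an ATP-gated channel best known from sensory neurons, was at a log2 ratio of −1.61 with Lamtor1 loss and −1.90 with Torin1 for its brightest probe. After Torin1 its other 2 probes, well above background on both arrays, were at 1.00 and 0.76, so the direction depended on the probe. P2rx5 was at 0.70 and −1.32, on opposite sides of M2 as P2ry14 was. Gja1, which encodes the gap junction protein connexin 43, was at 0.23 after Lamtor1 loss and at least 2.96-fold lower after Torin1. P2ry1, a receptor for ADP chosen here after its values were seen, had processed signals of 5872 in M2, 4908 in Lamtor1-deficient, 5230 in Torin1-treated and 25.7 in M1 BMDMs. Its log2 ratio to M2 was −6.78 in M1 BMDMs, whereas it was −0.11 after Lamtor1 loss and 0.17 after Torin1. It was low in M1 BMDMs only.

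**Figure D5:**
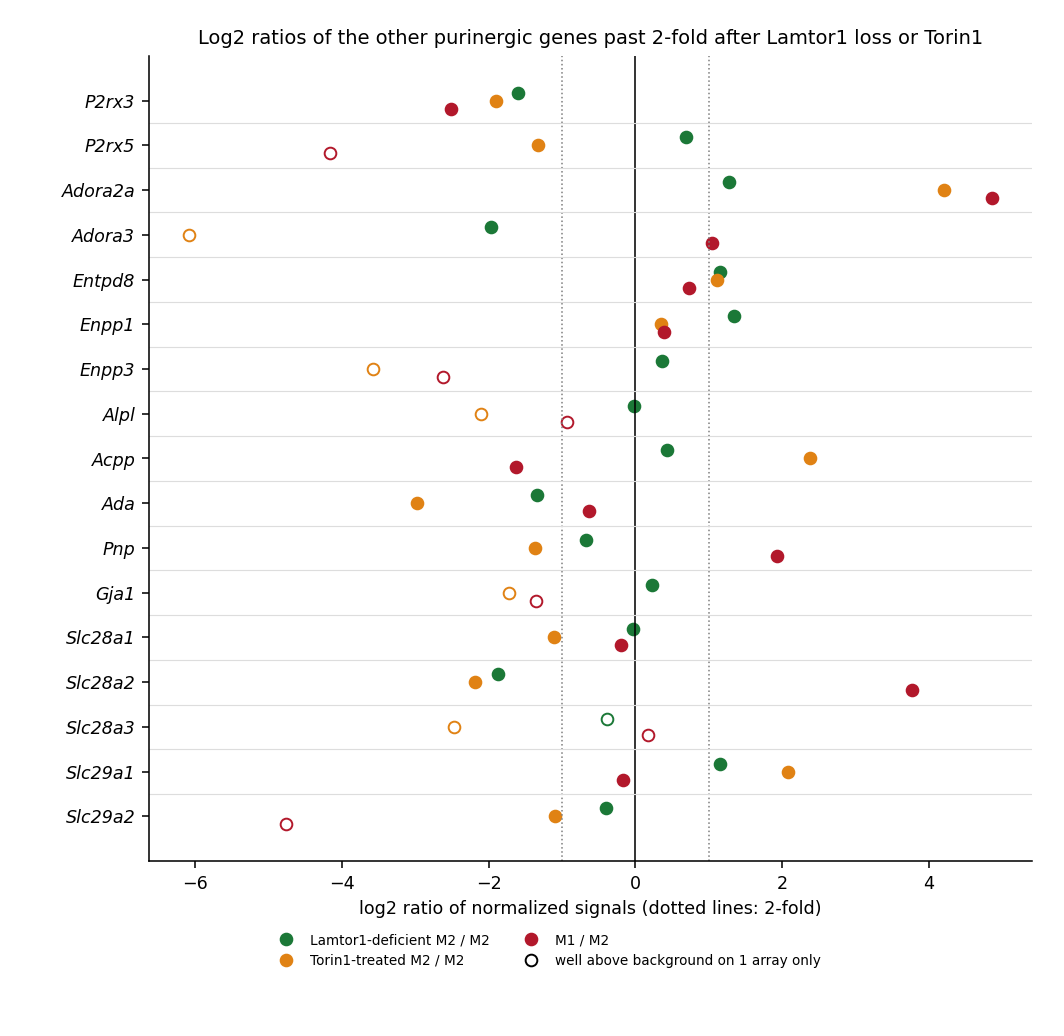
Log2 ratios of normalized signals to M2 for the 17 other purinergic genes whose brightest probe was well above background on at least 1 array and past 2-fold after Lamtor1 loss or Torin1, 1 point per comparison and dotted lines at 2-fold. Open points had a probe well above background on 1 of the arrays compared. Adora2a lies to the right and Ada to the left after both treatments, and Enpp1 passes the line after Lamtor1 loss but not after Torin1.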

How the data were processed

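Total RNA of 4 BMDM cultures was labelled with Cy3 and hybridized to Agilent mouse arrays. The authors deposited scanner files with spot intensities, whose processed signal was background-subtracted and detrended by Feature Extraction (version 10.5.1.1 per the labels, 10.7.3.1 in the file headers) and not normalized between arrays. A deposited table of the same intensities differed by at most 0.497%. Control spots and 170 to 226 outlier spots per array were left out, no spot was saturated, spots of a probe were averaged, and each array was divided by its 75th percentile, with a raw threshold of 1.0, on the log2 scale. Each gene was represented by its brightest probe. The 4 arrays gave 4 comparisons, called at 2-fold with no test. Of all probes, 50.9% to 55.4% were well above background, and precision is limited by the number of arrays. A probe well above background on 1 of the arrays compared gives only a bound.

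All members, the targeted gene and polarization genes were named (some are not reported here), as were other purinergic genes well above background on at least 1 array and past 2-fold after Lamtor1 loss or Torin1. Members and lists were chosen with earlier results of these data known, and the motifs and P2ry1 after the values were seen. The 10 members matched the RefSeq table by symbol. Probe coordinates are on mm9 and promoters on GRCm38.p6. Alternatives were other scalings, normexp (offset 50), filters and a floor on dim probes, outlier spots kept, the mean over probes, a 3-fold limit, the series table, and 1 Mb around Lamtor1. The procedure was tested on simulated data. Software was Python 3.11.15 (NumPy 2.4.6, pandas 2.3.3, matplotlib 3.10.9) and R 4.3.3 (limma 3.58.1).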

Additional observations from a re-analysis of the deposited data

Results flagged for a closer look

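P2ry14 was on opposite sides of the M2 array after the 2 treatments, with log2 ratios of 1.05 for Lamtor1 loss and −1.04 for Torin1. With 1 array per condition this difference was not tested. Under the alternatives the ratio lay between 0.98 and 1.11 after Lamtor1 loss and between −1.28 and −0.95 after Torin1.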

How the results depend on the processing

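No paired analysis was possible because each group holds a single array, and leaving out an array removes every comparison that holds it. P2ry2 lay between 2.49 and 2.63 after Lamtor1 loss and between 2.16 and 2.57 after Torin1 under all alternatives, and P2ry6 between −3.71 and −3.39 and between −4.79 and −4.46. Of 385 alternative values of the members, 15 changed sign, and 4 of these were past 2-fold in the main setting. These were P2ry12 in M1 over M2 (0.24 with normexp), P2rx7 in M1 over M2 (0.78 as the mean of its probes), and Nt5e with a floor on dim probes (−0.12 for Torin1 over M2 and 0.16 for Lamtor1-deficient over Torin1-treated BMDMs, where both arrays sit at the floor and the ratio is that of the floors). The count of higher members after Lamtor1 loss was 1 with the 75th percentile taken over probes that were well above background on every array and with a 3-fold limit, and 3 with a shift to the array median, where Entpd1 was at 1.01. Lower members after Torin1 numbered 3 with normexp, with probes well above background on both arrays and with a 3-fold limit, and lower members in M1 numbered 2 with a 3-fold limit. In Lamtor1-deficient over Torin1-treated BMDMs, higher members numbered 2 with these 3 settings and with that percentile, and lower members numbered 2 with quantile normalization or the mean over probes and 0 with normexp, either filter or the floor. Of the genes near Lamtor1, 12 differed after its loss with normexp or the filter on both arrays, and 10 within 1 Mb. After Torin1 there were 17 with normexp, 13 with that filter, 19 with the floor, 18 with a 3-fold limit and 16 within 1 Mb. Signal over background limits P2ry12, P2ry13 and Nt5e.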
